A study of Homo sapiens with 26 samples.

Results

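The EGF family ligands and their ERBB receptors were followed as 10 genes. These were the receptor genes EGFR, ERBB2 and ERBB3 and the ligand genes AREG, EREG, TGFA, HBEGF, BTC, EPGN and NRG1. They were taken by symbol from the 3 deposited count tables, 1 per cell line, and make up 10 of the 62778 gene identifiers in those tables. Each of the 10 was present in every table. The libraries came from 3 established lines of human pancreatic ductal adenocarcinoma in which the transcription factor HNF4α was raised or lowered. HNF4A is read from a pair of promoters, P1 and P2, which give isoforms that start differently. In Panc10.05, doxycycline induced the P1 isoform (genotype P1-a2, 25 ng/mL), the P2 isoform (P2-a8, 12.5 ng/mL) or a control (NC, named GFP in the titles, 25 ng/mL), with 2 libraries per group. In BxPC3 the same 3 genotypes (NC named EV in the titles) all received 500 ng/mL, again with 2 libraries each. In ASPC1, CRISPR interference with guide RNAs targeted P1 (guides sgP1E and sgP1J), P2 (sgP2D and sgP2G) or both (sgDual2 and sgDual3), with 2 libraries per guide and so 4 per target, beside 2 libraries of the control guide sgNC. Control cells of the induced lines thus carried a construct and received doxycycline too. Isoform and dose changed together in Panc10.05, and between the lines the dose, the control construct and the sequencing project changed together, so these cannot be told apart. Nothing in the labels says that the replicates are separate cultures or whether a line is 1 clone, so p-values measure the spread between these libraries, which may be technical.

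ERBB receptors are tyrosine kinases of the cell surface that work in pairs. EGFR binds amphiregulin (AREG), epiregulin (EREG), transforming growth factor alpha (TGFA), heparin-binding EGF (HBEGF), betacellulin (BTC) and epigen (EPGN), ERBB3 binds neuregulins such as NRG1 but has a weak kinase of its own, and ERBB2 has no known ligand and serves as partner to the others. The ligands are made as membrane proteins that proteases cut loose, and the paired receptors drive the RAS-ERK and PI3K-AKT relays.

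Of the 7 ligand genes, 4 lie side by side on chromosome 4. In GENCODE v29 on GRCh38, EPGN (74308473 to 74315307, plus strand), EREG (74365143 to 74388751, plus), AREG (74445134 to 74455009, plus) and BTC (74744759 to 74794686, minus) are consecutive protein-coding genes within 486 kb, with gaps of 49.8, 56.4 and 289.8 kb. Their promoters are shown because these 4 neighbours differed in level and in response within the same cells. Each line below is the 250 bases before the RefSeq transcription start (GRCh38.p14), read 5′ to 3′ on the gene's strand. Capitals mark TATAAA in EPGN, EREG and AREG, and TGACGTCA, the cyclic-AMP response element, in AREG.
EPGN, chr4:74308220-74308469, plus strand: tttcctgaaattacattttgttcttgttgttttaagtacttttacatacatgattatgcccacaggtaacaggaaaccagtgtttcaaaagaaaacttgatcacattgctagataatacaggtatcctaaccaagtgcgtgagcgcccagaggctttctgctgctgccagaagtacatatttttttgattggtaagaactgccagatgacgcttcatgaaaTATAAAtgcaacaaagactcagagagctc
EREG, chr4:74364895-74365144, plus strand: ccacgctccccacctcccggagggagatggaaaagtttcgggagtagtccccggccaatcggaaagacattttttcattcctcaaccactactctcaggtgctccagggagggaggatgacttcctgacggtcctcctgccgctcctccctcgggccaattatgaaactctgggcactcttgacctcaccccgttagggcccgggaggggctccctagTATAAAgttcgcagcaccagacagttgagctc
AREG, chr4:74444886-74445135, plus strand: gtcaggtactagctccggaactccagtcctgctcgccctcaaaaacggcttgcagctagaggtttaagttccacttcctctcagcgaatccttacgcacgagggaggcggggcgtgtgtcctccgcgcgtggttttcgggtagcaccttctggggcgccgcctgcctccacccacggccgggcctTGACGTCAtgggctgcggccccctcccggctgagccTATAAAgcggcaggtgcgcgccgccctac
BTC, chr4:74794524-74794773, minus strand: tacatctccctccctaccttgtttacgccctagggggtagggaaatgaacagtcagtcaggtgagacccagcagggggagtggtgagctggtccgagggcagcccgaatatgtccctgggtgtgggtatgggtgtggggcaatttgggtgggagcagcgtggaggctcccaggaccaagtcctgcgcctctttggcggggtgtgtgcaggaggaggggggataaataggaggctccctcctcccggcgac
TATAAA began 29 bases before the start of EPGN, 32 before that of EREG and 29 before that of AREG. These exact letters were not found in the BTC window, which does not show that BTC lacks a similar stretch. TGACGTCA began 65 bases before the AREG start. Over 35116 RefSeq promoter windows of 300 bases (250 before and 50 after the start), searched on both strands, 11.53% held TATAAA and 1.85% held TGACGTCA. Of the 10 windows of member genes, 4 held TATAAA (the other being of EGFR) and 1 held TGACGTCA. CAAAGTCCA, a common form of the HNF4 site, was in 0 of the 10 windows of 8 member genes and in 0.38% of all. TGANTCA, a loose AP-1-type pattern (N is any base), was in 2 of the 10 and in 7.71% of all. These were the EGFR window that starts at 55109589, not the one at 55018767, and the ERBB2 window, where the letters read TGATTCA. The motifs TATAAA and TGACGTCA were chosen after the sequences and values had been seen. A match is a description of letters, not of a bound site.

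**Figure D1:**
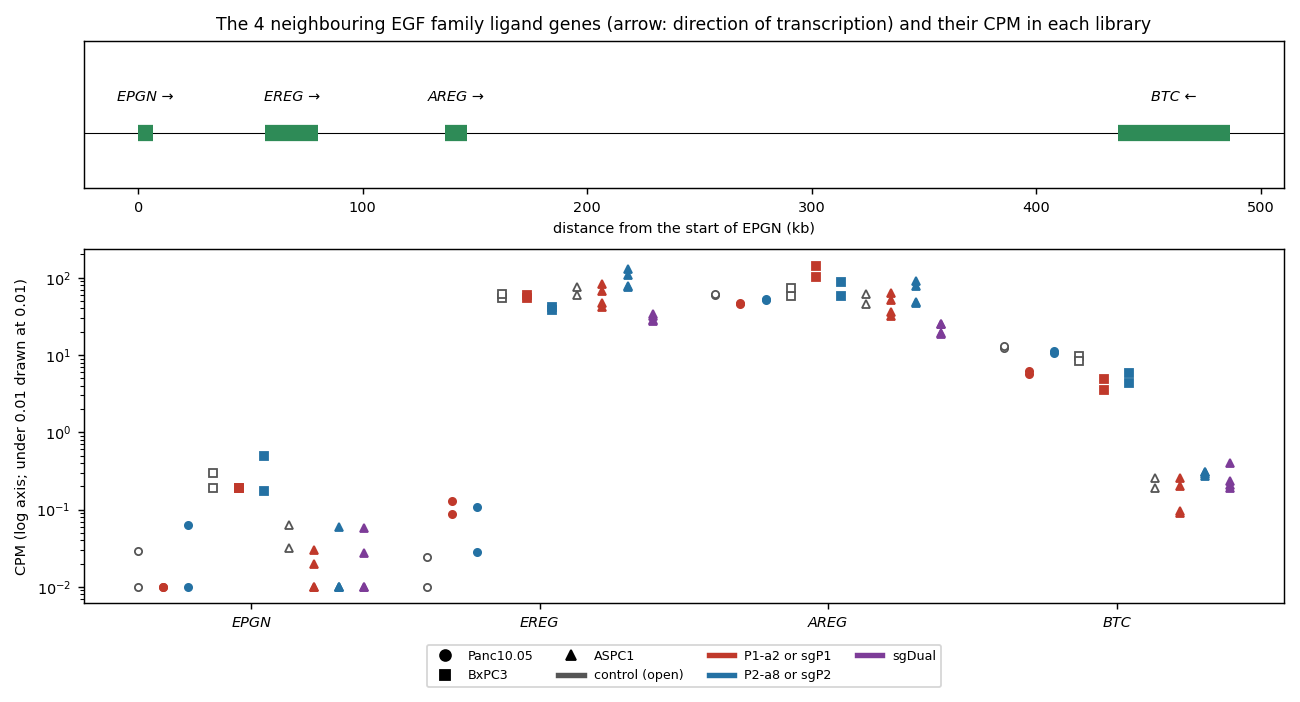
The upper panel maps the EPGN, EREG, AREG and BTC genes by distance in kb from the EPGN start. The lower panel plots on a log axis their CPM (counts scaled to library size, under 0.01 drawn at 0.01), 1 point per library, with shapes for the 3 lines, open points for controls and colours for P1, P2 and both: AREG is present in all lines, EREG is near 0 in Panc10.05 only, BTC is near 0 in ASPC1 only, and EPGN is near 0 throughout.

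Across all libraries, total counts ran from 26079388 to 50662077. HNF4A had a mean of 0.149 CPM in Panc10.05 NC, 11.8 in P1-a2 and 37.6 in P2-a8, and of 0.771, 10.7 and 13.4 CPM in the same groups of BxPC3. In ASPC1 it was 213 CPM with sgNC, 129 with sgP1, 86.5 with sgP2 and 7.99 with sgDual, and of these the sgDual fall passed the test. Summed epithelial markers were at 4670 to 18000 CPM over the 26 libraries, against 1.26 to 9.37 for immune, 0.258 to 4.59 for endothelial and 0.634 to 12.5 CPM for fibroblast markers, with CD3E at 0 counts in every ASPC1 library and DCN at 0 in every Panc10.05 library. The epithelial sum moved with induction: in Panc10.05 it was 4670 to 4690 CPM in NC, 6650 to 7700 in P1-a2 and 8150 to 8490 in P2-a8, and in BxPC3 it was 5700 to 6130, 8640 to 9080 and 7220 to 7260. In ASPC1 it was 14300 to 14600 CPM with sgNC, 8300 to 18000 with sgP1, 10200 to 11700 with sgP2 and 11300 to 16000 with sgDual. Its part in the differences below was not tested. As the libraries are bulk RNA, fewer cells of a kind and less RNA per cell cannot be told apart.

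In the control groups EGFR was the receptor gene with the highest level in all 3 lines, and AREG was the highest or second highest gene of the list. Levels between genes are given here as CPM per kb of annotated exon. In Panc10.05 NC the order of means was AREG at 36.9, HBEGF at 30.0, EGFR at 25.1, TGFA at 19.6, ERBB3 at 10.4, ERBB2 at 6.11 and BTC at 4.56 CPM per kb, and no neighbours in that order overlapped between the 2 libraries. In BxPC3 NC the order was EGFR at 48.1, AREG at 39.9, HBEGF at 37.6, TGFA at 17.3, ERBB3 at 10.8, NRG1 at 10.3, EREG at 10.14, ERBB2 at 9.08, BTC at 3.22 and EPGN at 0.135 CPM per kb. There AREG overlapped HBEGF, ERBB3, NRG1 and EREG overlapped one another, and the ranges of EREG and ERBB2 met. In ASPC1 sgNC it was EGFR at 68.2, AREG at 32.6, ERBB3 at 25.8, EREG at 11.8, TGFA at 9.02, ERBB2 at 6.81, HBEGF at 2.67 and BTC at 0.0792 CPM per kb, and AREG overlapped ERBB3.

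The set of ligands near absent differed between the lines, although EPGN was low in all 3 and NRG1 near absent in both Panc10.05 NC and ASPC1. EREG had 0 to 5 counts in any Panc10.05 library, but 38.8 to 61.8 CPM in BxPC3 and 27.3 to 129.8 CPM in ASPC1. NRG1, on chromosome 8 (31639386 to 32767959), was at 85.1 to 123.7 CPM in BxPC3, at 1 to 8 counts per library in ASPC1 and at 0 to 1 count in Panc10.05 NC. BTC was at 3 to 14 counts per library in ASPC1 and at 3.49 CPM or more in every library of the other lines. EPGN had at most 3 counts in Panc10.05, at most 2 in ASPC1 and 6 to 16 in BxPC3. The 3 tables were scaled separately, so these levels describe each line and the lines were not tested against each other. A filter on low counts kept 8 of the 10 genes in Panc10.05 (not EREG or EPGN), all 10 in BxPC3 and 8 in ASPC1 (not NRG1 or EPGN).

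**Figure D2:**
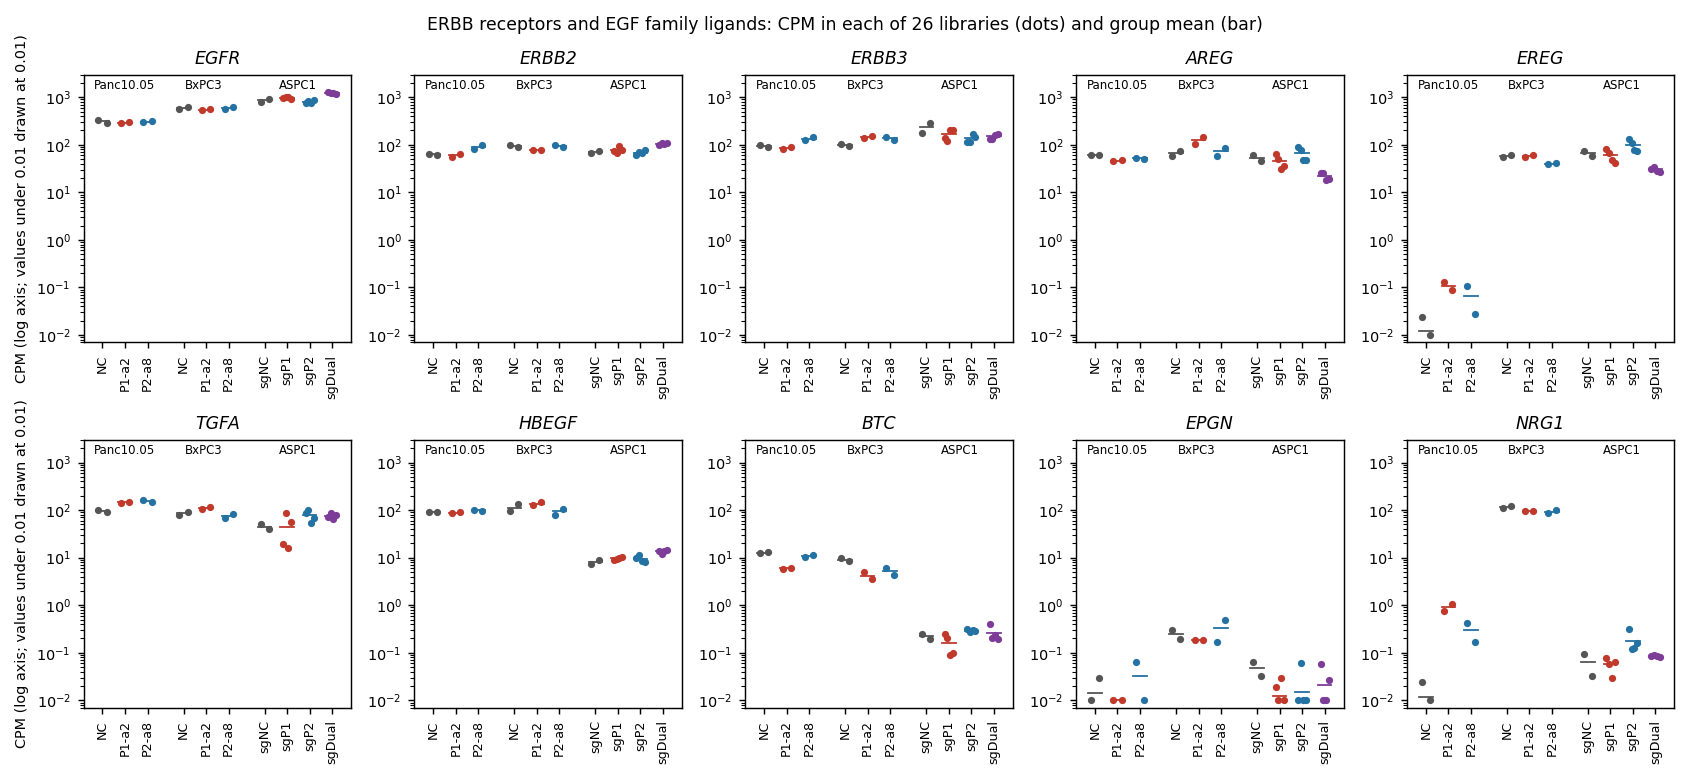
CPM of the 10 genes on a log axis, 1 point per library and a bar at each group mean, for the 3 lines. Values under 0.01 CPM are drawn at 0.01; EGFR is the highest receptor gene in each line, and EREG, NRG1 and BTC each drop out in at least 1 line.

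In Panc10.05 the P2 isoform went with more ERBB3 and ERBB2, both isoforms went with more TGFA and less AREG, and the P1 isoform went with less BTC. Each comparison used edgeR's quasi-likelihood test, with Benjamini-Hochberg adjustment over all genes of a table, and a gene rose or fell where its adjusted p was under 0.05. P1-a2 against NC called 4 of 8 tested members (2 higher, 2 lower), where 62% of 17247 genes passed, and P2-a8 against NC called 5 (4 higher, 1 lower), where 46.2% passed. Both comparisons share the NC libraries. The median log2 fold change of the members was -0.09 for P1-a2 (0.02 over all genes) and 0.33 for P2-a8 (0 over all genes). Neither median changed with NRG1 at its fold over the detection floor, given below.

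ERBB3, on chromosome 12 (56076799 to 56103505), was at 99.3 and 89.2 CPM in NC, 82.9 and 88.9 in P1-a2, and 124 and 146 in P2-a8. The P2-a8 libraries were above all others, and those of P1-a2 lay just under NC. The change was 0.52 (log2, SE 0.07, adjusted p 1.72e-07) for P2-a8 and -0.13 (SE 0.07, adjusted p 0.101) for P1-a2. ERBB2, on chromosome 17 (39687914 to 39730426), was at 65.5 and 60.5 CPM in NC, 56.1 and 63.3 in P1-a2, and 83.1 and 97.2 in P2-a8, so P2-a8 again stood above the others while NC and P1-a2 overlapped. It rose by 0.51 (log2, SE 0.07, adjusted p 4.86e-07) with P2-a8, and its change with P1-a2 was -0.08 (adjusted p 0.371). EGFR, on chromosome 7 (55019021 to 55211628), overlapped between all groups at 292 to 337 CPM in NC, 283 to 302 in P1-a2 and 300.1 to 311 in P2-a8. Its change was -0.10 (95% interval -0.23 to 0.02, adjusted p 0.150) with P1-a2 and -0.04 (-0.17 to 0.08, adjusted p 0.624) with P2-a8. Without NC replicate 2, EGFR and ERBB3 passed as lower with P1-a2, at -0.21 (adjusted p 0.00487, range over 10 alternatives 0.00487 to 0.927) and -0.21 (0.0193, range 0.0193 to 0.502). Exons of ERBB2 overlap PGAP3 and MIEN1, those of EGFR overlap EGFR-AS1, both on opposite strands, and those of ERBB3 overlap another gene on the same strand, and how reads were divided there is not given in the sources used here.

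Among the ligands, TGFA (chromosome 2, 70447280 to 70554193) was at 102 and 92.9 CPM in NC, 142 and 150.4 in P1-a2, and 159 and 149 in P2-a8. Both induced groups lay above NC and overlapped each other, with rises of 0.58 (log2, SE 0.06, adjusted p 1.08e-10) and 0.66 (SE 0.06, adjusted p 1.23e-11). AREG was at 60.6 and 61.0 CPM in NC, 45.8 and 47.5 in P1-a2, and 52.9 and 51.3 in P2-a8. The 3 groups did not overlap, with NC highest and P1-a2 lowest. AREG fell by 0.38 on the log2 scale (SE 0.07, adjusted p 4.18e-06) with P1-a2 and by 0.22 (SE 0.07, adjusted p 0.00553) with P2-a8, and the latter call was lost without P2-a8 replicate 2 (adjusted p 0.0655, range over 10 alternatives 0.00421 to 0.0655). BTC was at 12.4 and 13.3 CPM in NC, 5.75 and 6.20 in P1-a2, and 10.6 and 11.3 in P2-a8. P1-a2 stood far below the others: BTC fell by 1.10 (log2, SE 0.11, adjusted p 3.32e-11) with P1-a2, and its change with P2-a8 was -0.23 (adjusted p 0.0747). HBEGF (chromosome 5, 140332843 to 140346631) was at 90.5 and 90.6 CPM in NC, 86.1 and 91.9 in P1-a2, and 101 and 97.8 in P2-a8, and passed in neither comparison (adjusted p 0.751 and 0.0703).

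NRG1, near absent in NC, appeared at a low level on induction. It had 1 and 0 counts in NC, 30 and 50 in P1-a2 and 20 and 6 in P2-a8, which is 0.770 and 1.09 CPM in P1-a2 and 0.427 and 0.169 in P2-a8. Every induced library held more than either control. Its mean was 11.7-fold above a floor of 3 counts per control library (a mean of 0.0795 CPM) in P1-a2, and 3.75-fold above it in P2-a8. These folds leave out the spread between the induced libraries and so are not lower bounds. In the test against NC the adjusted p was 1.31e-08 for P1-a2 and 3.03e-04 for P2-a8. The floor covers counting error only, since reads are not independent molecules. EREG stayed at 0 to 5 counts and EPGN at 3 or fewer in all Panc10.05 libraries.

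Set against each other in Panc10.05, P1-a2 and P2-a8 differed in 6 of 8 members (5 lower and 1 higher with P1-a2), where 46.9% of genes passed (median -0.16 for the members, 0 over all genes). ERBB3 was lower with P1-a2 by -0.65 (log2, SE 0.07, adjusted p 1.76e-09), ERBB2 by -0.59 (SE 0.07, adjusted p 3.41e-08) and BTC by -0.87 (SE 0.11, adjusted p 3.64e-08). The other calls were less stable. NRG1 was higher with P1-a2 by 1.58 (SE 0.42, adjusted p 0.00190), but not without P1-a2 replicate 2 (0.0676), without P2-a8 replicate 2 (0.0667) or by DESeq2 (0.0635), with a range of 0.000793 to 0.0676 over 10 alternatives. HBEGF, lower by -0.16 (adjusted p 0.0308), did not pass without P1-a2 replicate 1 (0.293), without P2-a8 replicate 1 (0.139) or with no filter on low counts (0.0719), with a range of 0.0193 to 0.293. AREG, lower by -0.16 (adjusted p 0.0495), passed in 2 of 10 alternatives, over a range of 0.0371 to 0.250. Leaving out P1-a2 replicate 1 gave it 0.250, P1-a2 replicate 2 0.0891, P2-a8 replicate 1 0.178 and P2-a8 replicate 2 0.0547. EGFR and TGFA did not pass (adjusted p 0.443 and 0.334).

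**Figure D3:**
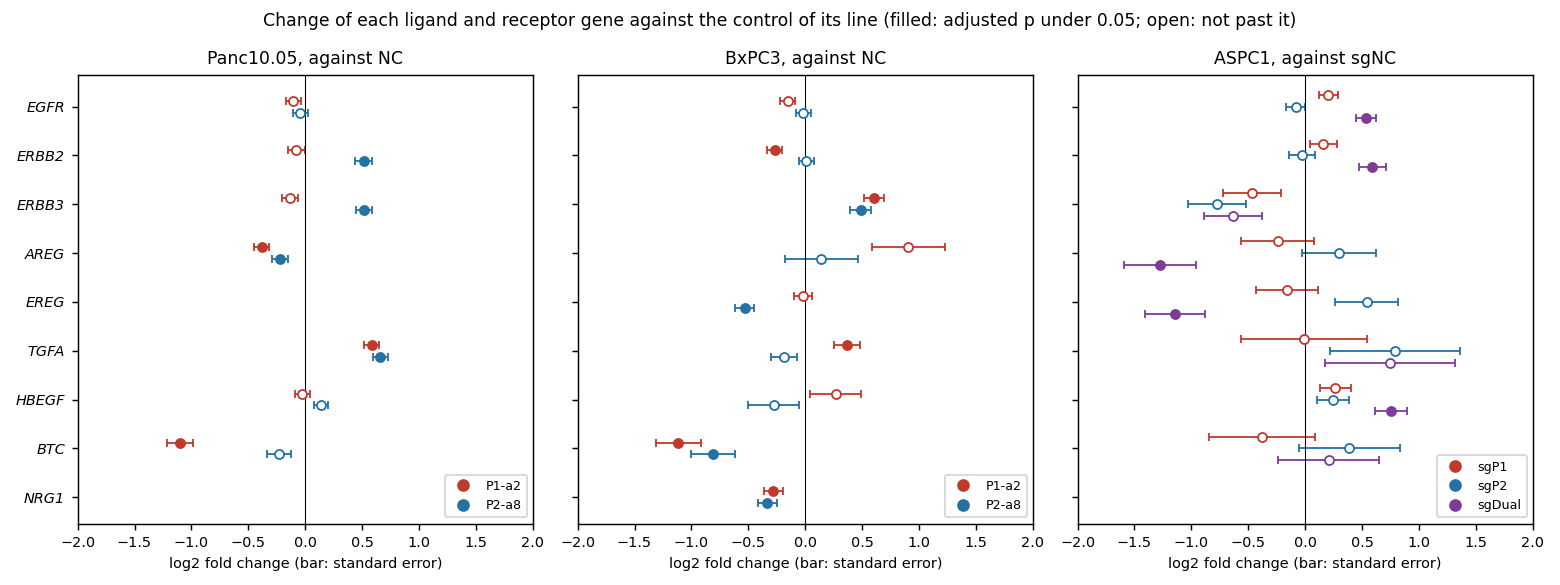
Log2 fold change with its standard error for each gene against the control of its line, for the 7 comparisons with a control, with filled points for adjusted p under 0.05. EPGN is not drawn, EREG in Panc10.05 and NRG1 in ASPC1 were not tested, and NRG1 in Panc10.05 is left out because its control libraries are at the floor. BTC falls to about the same extent with P1-a2 in both induced lines, while AREG and EREG fall furthest with sgDual.

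In BxPC3, ERBB3 rose with both isoforms and BTC and NRG1 fell with both, while TGFA rose and ERBB2 fell with P1-a2 and EREG fell with P2-a8. P1-a2 against NC called 5 of 10 members (2 higher, 3 lower), where 32% of 17635 genes passed. P2-a8 against NC called 4 (1 higher, 3 lower), where 6.99% passed. The members' median log2 fold changes were -0.09 and -0.10, against -0.01 and 0.01 over all genes, and both comparisons share the NC libraries.

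ERBB3 was at 103 and 92.2 CPM in NC, 141 and 156 in P1-a2, and 149 and 125 in P2-a8. Both induced groups lay above NC and overlapped each other. It rose by 0.60 (log2, SE 0.09, adjusted p 0.000688) with P1-a2 and by 0.49 (SE 0.09, adjusted p 0.0106) with P2-a8, the latter lost without NC replicate 2 (0.115, range over 10 alternatives 2.35e-12 to 0.115). ERBB2 was at 97.8 and 89.7 CPM in NC, 76.5 and 79.0 in P1-a2, and 98.2 and 90.1 in P2-a8. Here P1-a2 was below the rest and P2-a8 overlapped NC. ERBB2 fell by 0.27 (log2, SE 0.07, adjusted p 0.00943) with P1-a2, lost without NC replicate 1 (0.0897) or P1-a2 replicate 1 (0.0589), with a range of 0.000378 to 0.0897, and its change with P2-a8 was 0.01 (adjusted p 0.967). EGFR was at 566 and 638 CPM in NC, 527 and 556 in P1-a2, and 572 and 617 in P2-a8, with P1-a2 lowest. Its changes were -0.15 (95% interval -0.28 to -0.02, adjusted p 0.107) and -0.02 (-0.15 to 0.11, adjusted p 0.922). It passed as lower with P1-a2 in 4 of 10 alternatives, without NC replicate 1 (-0.24, adjusted p 0.0408), with total counts alone (0.0439), with no filter (0.0494) and with the replicate block (0.0032), over a range of 0.0032 to 0.573.

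BTC was at 9.82 and 8.30 CPM in NC, 4.89 and 3.49 in P1-a2, and 5.92 and 4.35 in P2-a8, so both induced groups were below NC and overlapped. It fell by 1.11 (log2, SE 0.20, adjusted p 0.00135) with P1-a2 and by 0.81 (SE 0.19, adjusted p 0.0290) with P2-a8. The P2-a8 call was lost without NC replicate 1 (0.161), NC replicate 2 (0.0654) or P2-a8 replicate 2 (0.138), with a range of 2.07e-05 to 0.161. EREG, the neighbour that Panc10.05 lacks, was at 54.1 and 61.8 CPM in NC, 54.5 and 60.02 in P1-a2, and 38.8 and 41.5 in P2-a8. Only the P2-a8 libraries stood apart, with a fall of 0.53 (log2, SE 0.08, adjusted p 0.00251), and the P1-a2 change was -0.02 (adjusted p 0.881). AREG was at 57.5 and 74.0 CPM in NC, 103 and 144 in P1-a2, and 57.9 and 87.6 in P2-a8. All P1-a2 libraries were above the rest, but the change of 0.91 (SE 0.32) had an adjusted p of 0.123, and that with P2-a8 was 0.14 (adjusted p 0.867). DESeq2 called the P1-a2 change (adjusted p 0.0327), and over 10 alternatives the adjusted p ran from 7.52e-11, with the replicate block, to 0.379. AREG was higher in replicate 2 than in replicate 1 in all 3 groups, as were EREG, TGFA, HBEGF and EGFR.

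TGFA was at 79.4 and 92.3 CPM in NC, 105 and 117.5 in P1-a2, and 67.7 and 83.5 in P2-a8. P1-a2 lay above both other groups, which overlapped. TGFA rose by 0.37 (log2, SE 0.11, adjusted p 0.0374) with P1-a2, lost without NC replicate 1 (0.187) or P1-a2 replicate 2 (0.203), with a range of 2.4e-07 to 0.203, and its change with P2-a8 was -0.19 (adjusted p 0.421). NRG1, the ERBB3 ligand, was at 109.5 and 123.7 CPM in NC, 96.1 and 95.9 in P1-a2, and 85.1 and 100.2 in P2-a8. Both induced groups lay below NC, with falls of 0.28 (SE 0.08, adjusted p 0.0231) and 0.33 (SE 0.08, adjusted p 0.0352). The first was lost without P1-a2 replicate 1 (0.0957), P1-a2 replicate 2 (0.0896) or NC replicate 2 (0.171), with a range of 0.000263 to 0.171, and the other without P2-a8 replicate 1 (0.147) or NC replicate 2 (0.239), with a range of 2.16e-05 to 0.239. HBEGF overlapped between NC (95.2 and 131.5 CPM) and both P1-a2 (127 and 146) and P2-a8 (80.5 and 107), and did not pass in either (adjusted p 0.448 and 0.597). In 1 of 10 alternatives each, HBEGF passed as higher with P1-a2 (0.00036) and as lower with P2-a8 (0.00177). TGFA likewise passed as lower with P2-a8 in 1 of 10 (0.015). EPGN, at 0.172 to 0.490 CPM, did not pass.

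At equal dose in BxPC3, P1-a2 was above P2-a8 for TGFA and EREG and below it for ERBB2, that is 3 of 10 members, where 22.5% of genes passed (median 0.08 for the members, -0.01 over all genes). TGFA differed by 0.56 (log2, SE 0.11, adjusted p 0.00976), lost without P1-a2 replicate 2 (0.0638, range over 10 alternatives 6.58e-15 to 0.0638). EREG differed by 0.51 (SE 0.08, adjusted p 0.00133). ERBB2 differed by -0.28 (SE 0.07, adjusted p 0.0122), lost without P1-a2 replicate 1 (0.0675) or P2-a8 replicate 1 (0.146), with a range of 0.000409 to 0.146. ERBB3 (0.12, adjusted p 0.401), BTC (-0.30, adjusted p 0.330), EGFR (-0.14, adjusted p 0.178), NRG1 (0.05, adjusted p 0.707) and EPGN (-0.78, adjusted p 0.440) did not pass. AREG (0.76, SE 0.31, adjusted p 0.198) and HBEGF (0.54, SE 0.22, adjusted p 0.179) did not pass either, although all P1-a2 libraries of both were above those of P2-a8. With the replicate block both passed (2.29e-09 and 2.47e-07), as did HBEGF when only these groups were fitted (0.0356), over ranges of 2.29e-09 to 0.495 and 2.47e-07 to 0.485.

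In ASPC1, lowering both HNF4A promoters went with more EGFR, ERBB2 and HBEGF and with less AREG and EREG. No member passed the main test when P1 or P2 alone was targeted. With the replicate block, ERBB3 passed as lower with sgP1 (adjusted p 0.0365) and sgP2 (0.000649), and EREG as higher with sgP2 (0.0401). Tests by target count the 4 libraries of a target as independent, although 2 share each guide, and sgNC is 1 guide. The comparison of sgDual with sgNC called 5 of 8 tested members (3 higher, 2 lower), where 35.6% of 16992 genes passed (median 0.37 for the members, 0 over all genes). With sgP1 against sgNC, 0 of 8 passed in edgeR, where 0.265% of genes passed, 1 had an unadjusted p under 0.05 (EGFR, log2 0.20) and DESeq2 called 0. With sgP2 against sgNC, 0 of 8 passed, where 3.42% of genes passed, 1 had an unadjusted p under 0.05 (ERBB3) and DESeq2 called that 1 (adjusted p 0.0257). These comparisons share the sgNC libraries, on which the counts over all genes rest heavily. For sgP1 the 45 genes called became 7 without sgNC replicate 1, 1 without sgNC replicate 2, 262 without guide sgP1E and 1242 without guide sgP1J. For sgP2 the 581 became 63 and 57 without sgNC replicate 1 and 2. BTC, at a few counts, changed by -0.38 (adjusted p 0.900) with sgP1, 0.39 (0.715) with sgP2 and 0.20 (0.759) with sgDual.

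EGFR was at 809 and 899.6 CPM with sgNC, 979 and 1004 with sgP1E, 1034 and 918 with sgP1J, 740.1 and 753 with sgP2D, 852.5 and 879 with sgP2G, 1303 and 1233 with sgDual2, and 1223 and 1182 with sgDual3. All 4 sgDual libraries were above all others, and EGFR rose by 0.53 (log2, SE 0.09, adjusted p 0.000325) against sgNC. ERBB2 was at 66.0 and 74.5 CPM with sgNC, 67.4 to 94.55 with sgP1, 61.8 to 77.4 with sgP2, and at 100.6, 103.8, 109.7 and 109 in the sgDual libraries, again above every other library. It rose by 0.59 (SE 0.12, adjusted p 0.00127). ERBB3 had a lower mean with sgDual than with sgNC, a change that did not pass. ERBB3 was at 179.6 and 287 CPM with sgNC, 118 to 209.6 with sgP1, 113 to 169 with sgP2 and 133 to 172 with sgDual. Only sgP1 overlapped sgNC. The sgDual change of -0.64 (SE 0.25) had an adjusted p of 0.0695. It passed in 4 of 14 alternatives, among them DESeq2 (adjusted p 0.0278) and without sgNC replicate 1, with a lowest adjusted p of 0.000164. Over the 14 alternatives the change ran from -0.94 to -0.26, the latter without sgNC replicate 2, the higher control library. Between sgDual and the single targets, ERBB3 differed by -0.17 against sgP1 (adjusted p 0.569) and by 0.135 against sgP2 (0.636). The sgP2 change of ERBB3 was -0.77 (SE 0.25, adjusted p 0.124).

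HBEGF, lower in this line than AREG, EREG or TGFA, was at 7.32 and 8.80 CPM with sgNC, 8.99 to 10.5 with sgP1, 8.18 to 11.5 with sgP2, and at 13.9, 13.9, 12.1 and 14.4 with sgDual. The sgDual libraries were above all others, a rise of 0.75 (log2, SE 0.14, adjusted p 0.000848). AREG was at 62.4 and 45.1 CPM with sgNC, 63.0 and 31.5 with sgP1E, 50.9 and 35.8 with sgP1J, 90.5 and 48.0 with sgP2D, 77.9 and 47.7 with sgP2G, 25.5 and 18.4 with sgDual2, and 25.3 and 19.5 with sgDual3. EREG, its neighbour on chromosome 4, was at 74.9 and 59.5 CPM with sgNC, 83.0 and 47.3 with sgP1E, 67.9 and 41.6 with sgP1J, 129.8 and 79.0 with sgP2D, 107 and 75.2 with sgP2G, 31.7 and 28.7 with sgDual2, and 34.0 and 27.3 with sgDual3. For both genes the sgDual libraries were below all others. Against sgNC, AREG fell by 1.28 (log2, SE 0.31, adjusted p 0.00794) and EREG by 1.15 (SE 0.27, adjusted p 0.00547). Without sgNC replicate 1 the changes were -1.03 (adjusted p 0.115, range over 14 alternatives 1.43e-06 to 0.115) and -0.97 (0.0814, range 1.96e-05 to 0.0814). Within each of the 7 guides, replicate 1 was above replicate 2 for AREG, EREG and TGFA (median ratios 1.42, 1.42 and 1.28) and below it for ERBB3 (0.687), where 10.2% of genes were above and 8.35% below in all 7.

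TGFA differed between the P1 guides. It was at 50.3 and 39.2 CPM with sgNC, 19.7 and 16.1 with sgP1E, 86.4 and 56.1 with sgP1J, 88.9 and 52.8 with sgP2D, 98.6 and 68.8 with sgP2G, 70.5 and 64.0 with sgDual2, and 88.6 and 77.2 with sgDual3. The sgP1E libraries were below the 12 others, and every sgP2 and sgDual library was above both of sgNC. Against sgNC the change was 0.79 (log2, SE 0.57, adjusted p 0.531, range over 14 alternatives 0.141 to 0.807) with sgP2. With sgDual it was 0.74 (SE 0.57, adjusted p 0.344), which passed when only these groups were fitted (0.00433, range 0.00433 to 0.640). Between the P1 guides, sgP1E was lower than sgP1J by -1.99 (log2, SE 0.30, adjusted p 0.00221), the 1 member called of 8, where 14.5% of genes passed. The pooled sgP1 change against sgNC was -0.01 (SE 0.56, adjusted p 0.999), but -1.32 (adjusted p 0.0179) without guide sgP1J and 0.66 without guide sgP1E, and its adjusted p ran from 0.0179 to 1 over 14 alternatives. Against sgP1, TGFA was 0.76 higher with sgDual (adjusted p 0.215), which passed without guide sgP1J (2.06, adjusted p 0.000172) and without sgP1J replicate 1 (1.30, adjusted p 0.0308), over a range of 0.000172 to 0.815 in 18 alternatives. The guides of P2 and of both promoters differed in 0 of 8 members in edgeR, where 1.69% and 0.883% of genes passed, with 1 (EGFR) and 0 at an unadjusted p under 0.05. DESeq2 was not run between guides.

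**Figure D4:**
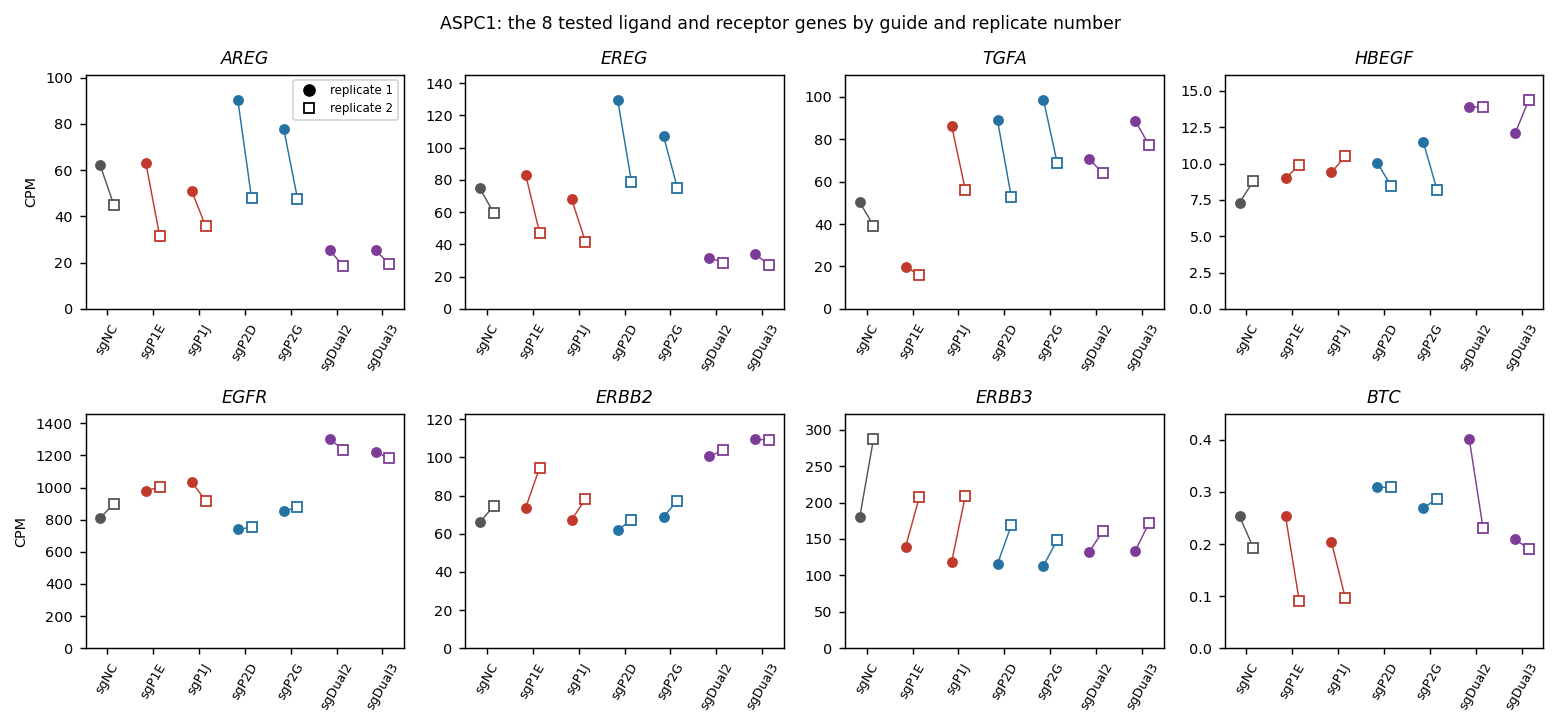
CPM of the tested genes in ASPC1 by guide, with filled circles for replicate 1 and open squares for replicate 2. EGFR, ERBB2 and HBEGF are highest and AREG and EREG lowest with sgDual2 and sgDual3, and TGFA is lowest with sgP1E.

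Between targets in ASPC1, the sgDual pattern held against either single target. Against sgP2, 5 of 8 members passed (3 higher, 2 lower), where 46.4% of genes passed: EGFR by 0.62 (log2, adjusted p 6.20e-06), ERBB2 by 0.62 (8.23e-05), HBEGF by 0.51 (0.00163), AREG by -1.57 (0.000549) and EREG by -1.68 (8.57e-05). Against sgP1, 5 passed (3 higher, 2 lower), where 38.3% passed: EGFR by 0.33 (0.00185), ERBB2 by 0.43 (0.00207), HBEGF by 0.49 (0.00290), AREG by -1.03 (0.00964) and EREG by -0.98 (0.00463). That AREG call was lost without guide sgDual2 (0.0611) or guide sgDual3 (0.0586), with a range of 2.34e-06 to 0.0611 over 18 alternatives. The 2 sets of values share the sgDual libraries. Comparing sgP2 with sgP1 called 1 of 8, where 4.3% passed. It was EGFR, lower with sgP2 by -0.29 (SE 0.07, adjusted p 0.0315), and its adjusted p ran from 0.00209 to 0.308 over 18 alternatives. Leaving out a library lost the call for sgP1J replicate 1 (0.0727), sgP2D replicate 1 (0.108), sgP1E replicate 2 (0.0575) and sgP2D replicate 2 (0.0804), as did leaving out guide sgP2D (0.308) or fitting the 2 targets alone (0.123). EREG was 0.70 higher with sgP2 than with sgP1 (SE 0.22, adjusted p 0.103). That change passed in 4 of 18 alternatives, among them DESeq2 (0.0118) and without sgP1E replicate 1 (0.0271), over a range of 0.00174 to 0.306. The others did not pass: TGFA (0.80, adjusted p 0.385), BTC (0.77, adjusted p 0.271), AREG (0.54, adjusted p 0.296), ERBB3 (-0.30, adjusted p 0.490), ERBB2 (-0.19, adjusted p 0.294) and HBEGF (-0.02, adjusted p 0.946).

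Whether the members responded differently in the induced lines was tested as the Panc10.05 change minus the BxPC3 change in 1 joint fit of 19372 genes. For P1-a2, 4 of 10 members passed, 2 higher and 2 lower in Panc10.05, where 36.4% of genes passed (median 0.04 for the members, -0.02 over all genes). Of these, EREG gives no evidence on the response: it failed the count filter in Panc10.05 alone and entered the joint fit through BxPC3. Its fitted value of 2.75 (SE 1.03, adjusted p 0.0388) rests on at most 5 counts per Panc10.05 library and was lost without Panc10.05 P1-a2 replicate 1 (0.129) or NC replicate 2 (0.193), over a range of 0.0223 to 0.193. ERBB3 differed by -0.73 (log2, SE 0.14, adjusted p 0.000486): it rose in BxPC3 and did not pass in Panc10.05. AREG differed by -1.28 (SE 0.34, adjusted p 0.0280), but 7 of 12 alternatives lost this call, over a range of 2.04e-14 to 0.0916. Leaving out any Panc10.05 library of either group gave 0.0730 to 0.0878, BxPC3 NC replicate 1 gave 0.0916 and BxPC3 P1-a2 replicate 2 gave 0.0788. NRG1 passed (adjusted p 1.76e-06), with a fitted size that depends on the prior count because its Panc10.05 controls were at the floor.

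BTC, by contrast, fell with P1-a2 by a like amount in both lines, with a difference of 0.03 (95% interval -0.41 to 0.46, adjusted p 0.981), and TGFA differed by 0.23 (-0.05 to 0.50, adjusted p 0.241). For P2-a8, 3 of 10 members passed, all higher in Panc10.05, where 23.5% of genes passed (median 0.54 for the members, -0.01 over all genes). They were ERBB2 by 0.51 (SE 0.11, adjusted p 0.00160), TGFA by 0.85 (SE 0.14, adjusted p 0.000463) and NRG1 (adjusted p 0.00145). ERBB3, called higher with P2-a8 in both lines, differed by 0.03 (95% interval -0.23 to 0.29, adjusted p 0.939). BTC differed by 0.58 (0.16 to 1.00, adjusted p 0.0526). Doses differed between the lines, 25 and 12.5 ng/mL in Panc10.05 and 500 ng/mL in BxPC3.

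The family's other genes were low or absent, with a few changes. EGF, the founding EGFR ligand, was at 2.28 and 2.67 CPM in Panc10.05 NC, 0.283 and 0.587 in P1-a2, and 0.983 and 0.789 in P2-a8. It fell with both isoforms, by 2.46 (log2, SE 0.30, adjusted p 1.54e-09) and by 1.46 (SE 0.27, adjusted p 1.36e-05). NRG2, a neuregulin, was at 1.84 CPM on average in Panc10.05 NC, 3.13 in P1-a2 and 3.35 in P2-a8, rises of 0.79 (adjusted p 0.00186) and 0.89 (adjusted p 0.000883) that were lost without NC replicate 1 (0.169 and 0.0881). NRG4, an ERBB4 ligand, moved in opposite directions between manipulations: in BxPC3 it was at 5.32 and 5.05 CPM in NC, 1.91 and 1.57 in P1-a2 (log2 -1.58, SE 0.25, adjusted p 0.00071) and 4.89 and 2.85 in P2-a8 (-0.42, adjusted p 0.355). In ASPC1, NRG4 was at 5.29 and 5.88 CPM with sgNC and at 13.7, 12.4, 11.8 and 13.4 with sgDual, above every other library, a rise of 1.20 (log2, SE 0.19, adjusted p 0.000252). Its exons overlap FBXO22 on the opposite strand. NRG3 had 0 counts in every library and ERBB4, the receptor for NRG4, at most 5.

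Beyond ligands and receptors, 45 genes of the pathway were followed: 4 for ligand shedding, 15 feedback regulators, 18 relay components and 8 transcriptional targets. In Panc10.05, 20 of 44 tested were higher and 12 lower with P1-a2, and 19 higher and 8 lower with P2-a8, against the 62% and 46.2% of all genes called. Median log2 changes were 0.09 and 0.10, against 0.02 and 0 over all genes. With P1-a2, 8 of 14 feedback genes rose and 0 fell, where 62% of all genes passed in either direction. Targets were 3 higher and 5 lower, and relay genes 7 and 6. The share of all genes by direction is not given here, and differences between roles were not tested. The ERK phosphatase gene DUSP5 rose by 2.45 (log2, SE 0.06, adjusted p 2.60e-31), from 124 and 122 CPM in NC to 646.5 and 696 in P1-a2. SPRY4, an inhibitor of receptor signalling, and DUSP4, another phosphatase gene, rose by 1.20 each, and RHBDF2, which supports the ligand-cutting protease, by 1.14. With P2-a8, 7 of 14 feedback genes rose and 1 fell, where 46.2% of all genes passed in either direction. PIK3R1, a PI3K subunit, rose by 1.09 (adjusted p 7.87e-12), MAPK3, which encodes ERK1, by 1.02, DUSP5 by 0.91 (adjusted p 2.22e-16) and FOS by 0.76.

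In BxPC3, 9 of 45 pathway genes were higher and 10 lower with P1-a2, and 3 higher and 5 lower with P2-a8, against 32% and 6.99% of all genes. The P2-a8 count of 8 became 3 without either NC library, 5 without P2-a8 replicate 2 and 14 with the replicate block. With P1-a2, SPRY4 rose by 1.01 (adjusted p 3.18e-05) and the adaptor gene SHC1 by 0.95 (adjusted p 0.000395), while SPRY1 fell by 0.92 (adjusted p 0.00170) and the ERK target IER3 by 0.71 (adjusted p 0.00268). Exons of SHC1 overlap PYGO2 and those of IER3 overlap IER3-AS1. With P2-a8, the AP-1 gene FOSL1 fell by 0.73 (adjusted p 0.00332) and DUSP4 by 0.71 (adjusted p 5.62e-05).

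In ASPC1, 12 of 45 pathway genes were higher and 4 lower with sgDual, where 35.6% of all genes passed, and the total of 16 became 8 without sgNC replicate 1 and 10 without sgNC replicate 2. RHBDF1, a partner of the ligand-cutting protease, rose by 1.75 (log2, SE 0.09, adjusted p 1.91e-08), from 49.5 and 53.5 CPM with sgNC to 163 to 181 with sgDual. The ubiquitin ligase gene CBLB rose by 1.53 (adjusted p 1.64e-05), EGR1 by 0.87 (adjusted p 0.000551) and ADAM10, a ligand-cutting protease, by 0.83 (adjusted p 0.000155). With sgP2, 2 genes were higher and 1 lower, where 3.42% of all genes passed, and the total of 3 became 1 without either sgNC library. The gene that was lower was LRIG3, of a receptor-damping family (log2 -1.20, adjusted p 0.00129). With sgP1, 0 of 45 passed in edgeR, where 0.265% of all genes passed, 4 had an unadjusted p under 0.05 and DESeq2 called 1, and edgeR called 1 without sgP1J replicate 1.

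**Figure D5:**
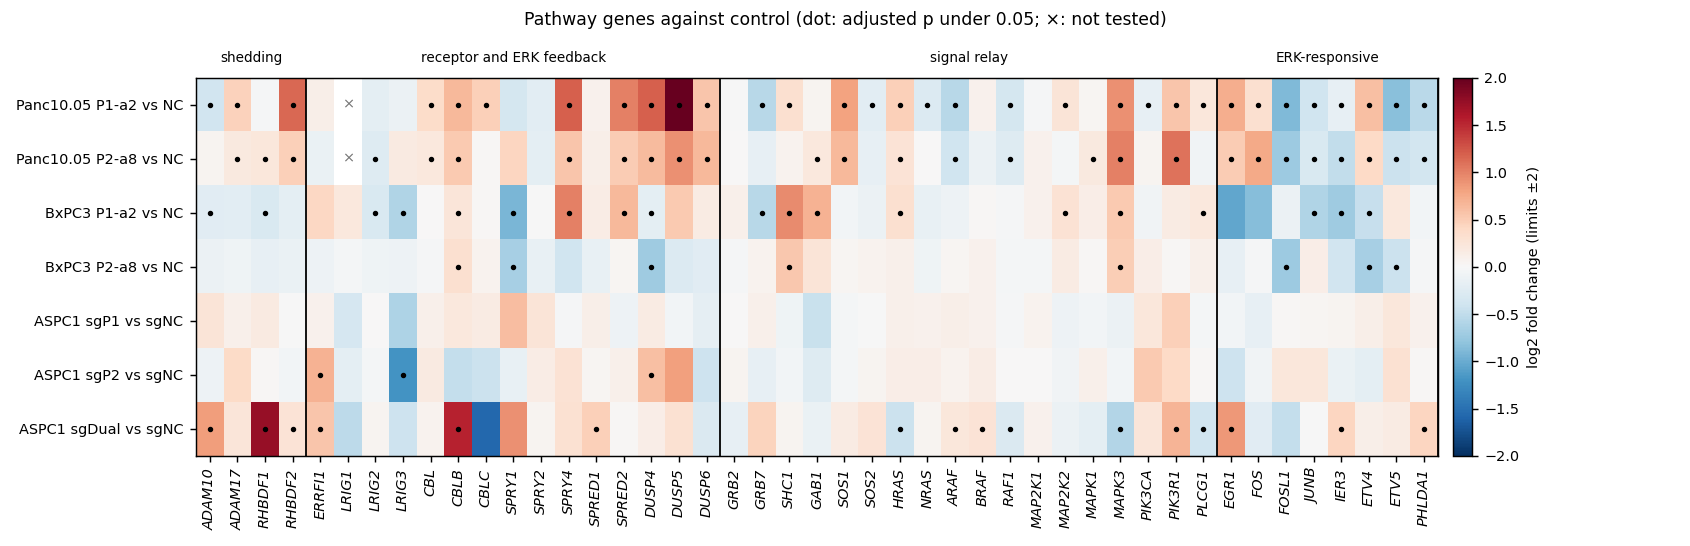
Log2 fold changes of the 45 pathway genes (columns, by role) in the 7 comparisons with a control (rows), coloured from -2 to 2, with a dot for adjusted p under 0.05 and a cross for a gene not tested (LRIG1 in Panc10.05). DUSP5 with P1-a2 in Panc10.05, at 2.45, lies past the colour scale.

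Genes most like a member were those with the highest Pearson r over the 26 libraries, with log2 CPM standardised within each line, among 9310 candidates (9311 for BTC). All share libraries and depth, so these are descriptions. AREG was most like TUBA1C (r 0.96) and BCL2L1 (0.95), ERBB2 like CEBPD (0.91) and TLR3 (0.90), and TGFA like PDGFB (0.89) and LAMA3 (0.88). HBEGF was most like CLDN4 (0.89) and ATP6V1E1 (0.86), EGFR like MAPK8IP3 (0.88) and TTC3 (0.87), ERBB3 like B4GAT1 (0.84) and GALM (0.79), and BTC like FAM199X and LRP8 (both 0.81). Within Panc10.05 alone, r was 0.55 for ERBB3 with B4GAT1 and 0.52 with GALM. BTC was at only 3 to 14 counts per library in ASPC1, where r was 0.74 with FAM199X and 0.70 with LRP8.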

How the data were processed

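RNA of 26 libraries was poly(A)-selected, prepared with a directional kit and sequenced paired-end, per the labels' protocols. The authors deposited whole-number counts per gene without normalization, 1 table per line. The submitters' processing notes name cutadapt 1.16, STAR 2.7.9a, featureCounts 1.6.3, DESeq2 1.36.0 and GRCh38, and the annotation and strand setting are not given in the sources used here, so reads of overlapping genes may be shared. Symbols came from a reference table that matched 99.88% of identifiers in Panc10.05 and BxPC3 and 99.91% in ASPC1. Coordinates and exon lengths are from GENCODE v29 and promoters from RefSeq. Library totals were 34618745 to 46827673 (Panc10.05), 26369154 to 37483772 (BxPC3) and 26079388 to 50662077 (ASPC1).

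Groups follow the genotype labels. In each table, genes passed filterByExpr, libraries were scaled by TMM, and all groups shared 1 spread estimate in edgeR's quasi-likelihood test (glmQLFit, robust, then glmQLFTest), adjusted by Benjamini-Hochberg over all genes tested at 0.05. The standard error is the log2 fold change over the square root of F. The 95% intervals use this standard error with normal quantiles, not the degrees of freedom of the test, and so are narrower than the test implies. CPM use TMM-scaled totals. Guides were compared in a fit of 7 guides, and lines in a joint fit of their 12 libraries. Groups with no library above 3 counts were taken as at the detection floor for that gene. No pair of replicates agreed within sampling noise (chi-square over degrees of freedom 5.53 or more). The scripts were tested on simulated data.

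The members and lists were chosen with earlier results of these data known. The rule named all 10 members in every comparison (the text leaves out some values of members that did not pass). Of the pathway list it named up to 4 genes per comparison with the largest change that passed and a mean of at least 5 CPM. The text names fewer of these: only in comparisons with a control, and not every gene picked there. EGF, NRG2 and NRG4 were named after their values were seen. A further gene of the pathway list is not reported here. Alternatives were another scaling, no filter, the replicate block, DESeq2, the compared groups alone, and each library or guide left out. Software: DESeq2 1.42.0, limma 3.58.1 and edgeR 4.0.16 in R 4.3.3; matplotlib 3.10.9, pandas 2.3.3 and numpy 2.4.6 in Python 3.11.15.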

Additional observations from a re-analysis of the deposited data

Results flagged for a closer look

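The interaction test between Panc10.05 and BxPC3 passed for several genes, given as the Panc10.05 change minus the BxPC3 change on the log2 scale. With P1-a2 these were ERBB3 at -0.73, AREG at -1.28, EREG at 2.75 and NRG1 at 6.12. With P2-a8 they were ERBB2 at 0.51, TGFA at 0.85 and NRG1 at 4.60. The NRG1 values rest on Panc10.05 control libraries at 1 and 0 counts, so they are fitted sizes that depend on the prior count and no bounds. EREG was at 0 to 5 counts per Panc10.05 library and entered the joint fit through BxPC3, so its value gives no evidence of a different response. Line, dose, control construct and sequencing project changed together here and cannot be told apart. No single library lay far from the rest of its group among the 26 combinations of a gene and an ASPC1 target (4 libraries each) examined. The rule looks for 1 library apart and cannot show a split between guides, such as that of TGFA with sgP1. Groups of 2 libraries were not examined.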

How the results depend on the processing

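Of 1605 values of 146 member results under alternatives, 1506 kept their side of the threshold, 50 lost the call, 49 gained it and 0 called values reversed. Among the 1605, 60 values of members that did not pass changed sign. Among named genes outside the list, 57 of 971 values lost the call and 2 gained it, and 30 of 189 pathway counts moved by over 1.5 times; the alternatives for these genes were chosen after seeing the data. Replicate numbers were not taken as pairs, because the labels give them no meaning. Correlations of same-numbered deviations between groups were -0.01 to 0.01 in Panc10.05, 0.07 to 0.13 in BxPC3 and 0.08 to 0.34 in ASPC1. All were thus positive in BxPC3 and ASPC1, where several members also shifted the same way with the number. The main tests leave any such shift in the spread between libraries, so members that missed the threshold in those lines may pass with the block. With the replicate block, members called became 8 in place of 5 for BxPC3 P1-a2 against NC, 6 in place of 3 for BxPC3 P1-a2 against P2-a8, 1 in place of 0 for sgP1 and 2 in place of 0 for sgP2 against sgNC, 4 in place of 1 for sgP2 against sgP1, 2 in place of 1 for sgP1E against sgP1J, and 6 in place of 3 for the interaction with P2-a8. DESeq2 called 1 for sgP2 against sgNC and 2 for sgP2 against sgP1. For sgP2 against sgP1, fitting only the 2 groups gave 0, and leaving out guides gave 2 (sgP1E), 2 (sgP1J) and 0 (sgP2D). Without guide sgP1J, sgP1 against sgNC called 1. Leaving out each replicate gave 3 to 4 for BxPC3 P1-a2 against NC, 1 to 3 for BxPC3 P2-a8 against NC, 0 to 2 for sgP2 against sgP1, 2 to 5 for the interaction with P1-a2, and 4 for Panc10.05 P1-a2 against P2-a8 (6 with all). A lone library was assumed to vary like the other groups. Over all genes, calls for sgP1 against sgNC were 45, or 241 by DESeq2, and for sgP2 against sgNC 581 or 1099. For sgP1 they were 7 with only the 2 groups fitted, 127 with the block and 1 to 144 leaving out a library, and for sgP2 1103, 972 and 57 to 466. They were 731 for sgP2 against sgP1, or 1233, 189, 1204 and 324 to 1208 in the same settings (DESeq2 first), and 306 to 2764 leaving out a guide. They were 1232 for BxPC3 P2-a8 against NC, or 2886 with the block, 1982 with no filter and 495 to 927 leaving out a library, and 6048 for sgDual against sgNC, or 2775 without sgNC replicate 1. With 2 control libraries per line, a member that missed the threshold may still have changed, and fold changes of members at a few counts are imprecise.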
